A study of Mus musculus with 6 samples.

Results

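Glutathione S-transferases of the nasal mucosa were examined as a group of 8 genes, Gsta3, Gsta4, Gstm1, Gstm2, Gstm5, Gstp1, Gstt1 and Gsto1, taken as every probe set whose platform annotation names exactly 1 of these symbols. These genes are 8 of the 18193 genes on the array and own 13 of its 45037 probe sets that are not controls, and all 8 were among the 13219 genes bright enough to be tested. RNA came from microdissected olfactory epithelium of 3 male Harlequin mice (genotype Hq/Y), of the strain B6CBACAw-J/A-Pdcd8-Hq/J, and 3 male littermate controls (genotype +/Y), of the strain B6CBACa, all bought at 13 weeks of age and 6 months old at sampling, with 1 Affymetrix array per mouse. Harlequin lowers expression of Aifm1, which lies on the X chromosome and encodes the mitochondrial protein apoptosis-inducing factor, and the study set out to look for mechanisms of neurodegeneration under oxidative stress. The labels call the controls littermates but give them another strain name, so any difference in background cannot be told apart from the Harlequin mutation here.

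Glutathione S-transferases join the tripeptide glutathione to reactive, mostly oily compounds, which makes them more soluble and ready for export from the cell. The soluble enzymes fall into classes named alpha (Gsta), mu (Gstm), pi (Gstp), theta (Gstt) and omega (Gsto), and act as dimers. In the nose they belong to the set of detoxifying enzymes that meets inhaled chemicals and odorants, with sustentacular cells and Bowman glands as well-known sites of such enzymes, and they also dispose of products of lipid peroxidation.

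Aifm1 gave signals of 335.4, 221.1 and 211.2 on the Harlequin arrays, against 1239.9, 1255.6 and 1128.2 on the control arrays, a log2 difference of -2.20 (limma adjusted p = 0.0158). The arrays had a median signal of 109.6 to 113.3 in Harlequin and 107.9 to 119.7 in controls, with 3' to 5' Gapdh ratios between 0.729 and 0.790 in Harlequin and between 0.740 and 0.846 in controls. The tissue label was borne out by the neuronal marker Omp, at 15891.8 to 18821.7 in Harlequin and 16391.9 to 17347.8 in controls, and by the sustentacular enzyme Cyp2g1, at 17439.0 to 17864.0 in Harlequin and 16585.7 to 18072.4 in controls. In bulk tissue such as this, fewer cells of a type and less RNA per cell cannot be told apart. Having only 3 arrays in each genotype limits how precise any difference can be.

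Promoter windows are shown for the 2 pairs of members whose signals ran most closely together over the 6 arrays, Gsta3 with Gstp1 and Gstm1 with its chromosomal neighbour Gstm2. The pairs were found with the brightest probe set of each gene. Sequences are from RefSeq on GRCm38.p6, cover 250 bases before to 50 after the transcript start, and run 5′ to 3′ on the strand of the gene; 7 of the 8 members had a window, and Gstm1 had 2, of which the window of its downstream start is shown. Capitals mark matches on either strand to the antioxidant response element core TGACNNNGC, the AP-1 motif TGANTCA or the TATA motif TATAAA. The windows are chr1:21240335-21240634 (plus strand) for Gsta3, chr19:4037863-4038162 (minus strand) for Gstp1, chr3:108017769-108018068 (minus strand) for Gstm1 and chr3:107986371-107986670 (minus strand) for Gstm2.
Gsta3: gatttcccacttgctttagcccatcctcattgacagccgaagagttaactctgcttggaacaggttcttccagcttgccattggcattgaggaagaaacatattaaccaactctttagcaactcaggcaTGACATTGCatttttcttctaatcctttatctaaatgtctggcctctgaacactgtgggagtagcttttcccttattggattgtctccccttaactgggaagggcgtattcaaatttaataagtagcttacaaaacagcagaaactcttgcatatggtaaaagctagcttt
Gstp1: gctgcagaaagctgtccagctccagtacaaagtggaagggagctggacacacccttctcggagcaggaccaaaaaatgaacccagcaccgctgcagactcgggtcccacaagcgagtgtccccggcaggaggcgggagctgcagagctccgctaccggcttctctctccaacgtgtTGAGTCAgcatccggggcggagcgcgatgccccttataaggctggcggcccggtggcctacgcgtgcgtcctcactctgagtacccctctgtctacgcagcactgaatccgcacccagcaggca
Gstm1: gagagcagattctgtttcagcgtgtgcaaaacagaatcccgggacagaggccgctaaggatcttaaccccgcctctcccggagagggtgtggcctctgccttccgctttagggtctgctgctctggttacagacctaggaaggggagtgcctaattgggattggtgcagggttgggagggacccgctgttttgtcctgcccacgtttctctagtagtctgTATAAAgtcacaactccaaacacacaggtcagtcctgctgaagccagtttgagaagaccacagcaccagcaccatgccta
Gstm2: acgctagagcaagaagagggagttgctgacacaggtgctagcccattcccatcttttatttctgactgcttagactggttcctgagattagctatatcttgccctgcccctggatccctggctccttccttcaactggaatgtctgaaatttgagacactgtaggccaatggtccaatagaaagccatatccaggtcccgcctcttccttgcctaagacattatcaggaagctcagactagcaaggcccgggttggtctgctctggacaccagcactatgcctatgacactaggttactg

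The Gsta3 window held 1 antioxidant response element core, starting 121 bases before the transcript start. The Gstp1 window held 1 AP-1 motif, starting 74 bases before it, so the pair shared none of the motifs as searched. The Gstp1 stretch TGAGTCAGC differs from the searched antioxidant response element core only in opening with TGAG in place of TGAC. Wider forms of that core were not searched. The shown Gstm1 window had a TATA motif 30 bases before the start, and the Gstm2 window matched none of the marked motifs. Of the other members, Gstm5 held both an antioxidant response element core, 42 bases before the start, and an AP-1 motif, 176 bases before it, besides a TATA motif 41 bases into the transcript, whereas the windows of Gstt1 and Gsto1 matched none of the 3. The GC box GGGCGG, searched on both strands as well, occurred in the Gstp1 window, 60 bases before the start, 2 times in that of Gsto1 and 2 times in that of Gstm5. The short xenobiotic response core GCGTG occurred in the Gstp1 window and in both Gstm1 windows, and 2 times in that of Gstm5, where the matches overlapped the antioxidant response element core and the AP-1 motif. Over all 32851 windows of this length, 12.4% held the antioxidant response element core, 7.81% the AP-1 motif, 13.6% the TATA motif, 35.7% the GC box and 32.4% the xenobiotic response core. These are matches of letters and not measured binding sites.

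The first question was how bright these enzymes were in control epithelium. The members had bright probe sets, and 7 of the 8 lay among the brightest 5% of the 18193 genes by mean control signal. Gstm5, a mu class enzyme, ranked 49, at 17031.7 ± 1941.0 signal units in controls (SD, n = 3). Gstm1, the mu class enzyme best known from liver, ranked 108, and Gsta4, an alpha class enzyme that conjugates the lipid peroxidation product 4-hydroxynonenal, ranked 113. These were followed by Gstm2 at 428, Gstp1 at 490, Gsta3 at 731 and Gsto1 at 772. Gstt1, a theta class enzyme that acts on small halogenated compounds, ranked 4809, with 73.6% of genes below it. A probe set's brightness depends on its probes as well as on the RNA, so these ranks place each probe set within the array and do not order the enzymes by abundance.

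The ranks moved with the control array. Gsto1 ranked 1653, 431 and 822 on control replicates 1, 2 and 3, Gstm1 ranked 138, 195 and 56, and Gsta3 ranked 1093, 697 and 549. Gstm2 kept to 444, 450 and 411. Several neighbouring places in this order were not separated beyond the spread between mice, since from one control array to another the ranks of Gstm1 and Gsta4 crossed, as did those of Gstm2 and Gstp1 and those of Gsta3 and Gsto1. Gstt1 was the dimmest member on each control array. Ranked by the Harlequin mean instead, Gstm1 stood at 57, Gstm5 at 58, Gsta4 at 127, Gstp1 at 323, Gstm2 at 402, Gsto1 at 462, Gsta3 at 530 and Gstt1 at 4296.

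**Figure D1:**
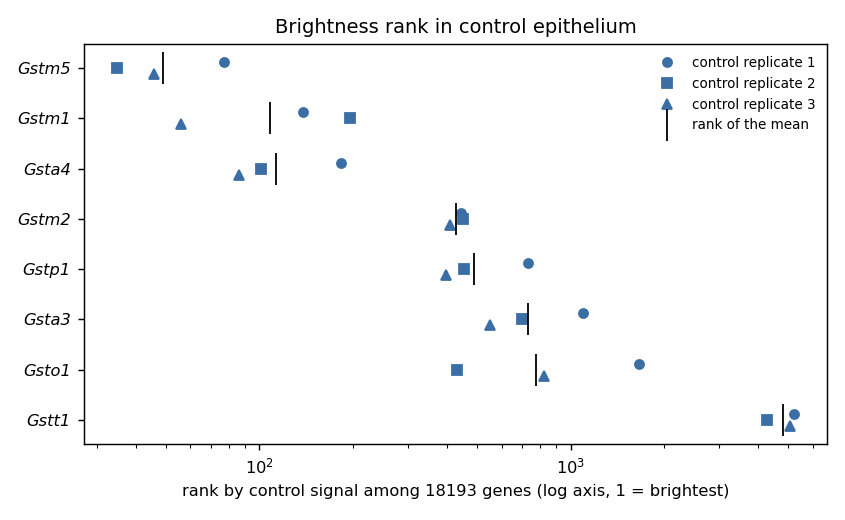
Rank of each member by control signal among 18193 genes, on a log axis where 1 is the brightest; symbols are the 3 control arrays and the bar is the rank of their mean. Gstm5 lies furthest to the left with a rank of 49 for the mean, Gsto1 spreads from 431 to 1653, and Gstt1 is the dimmest member at 4809.

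The second question was whether Harlequin epithelium differed from control epithelium in these enzymes. None of the 8 members passed the test over all genes: 0 were called at an adjusted p under 0.05 in limma, where 4 of 13219 genes (0.0303%) were. At an unadjusted p under 0.05 there were 0 of 8, against 605 genes or 4.58% of those tested, and the Harlequin and control values overlapped for all 8, while 10.4% of the genes tested had no overlap between the genotypes. Mean differences on the log2(signal + 16) scale were positive for 6 members and negative for 2, with a median of 0.24, beside a median of 0.00 and 6610 positive differences over the 13219 genes tested. Adjusted p-values of the members were 0.981 to 0.991. The median was 0.10 without Harlequin replicate 1, 0.15 without Harlequin replicate 2 and 0.08 without control replicate 1.

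**Figure D2:**
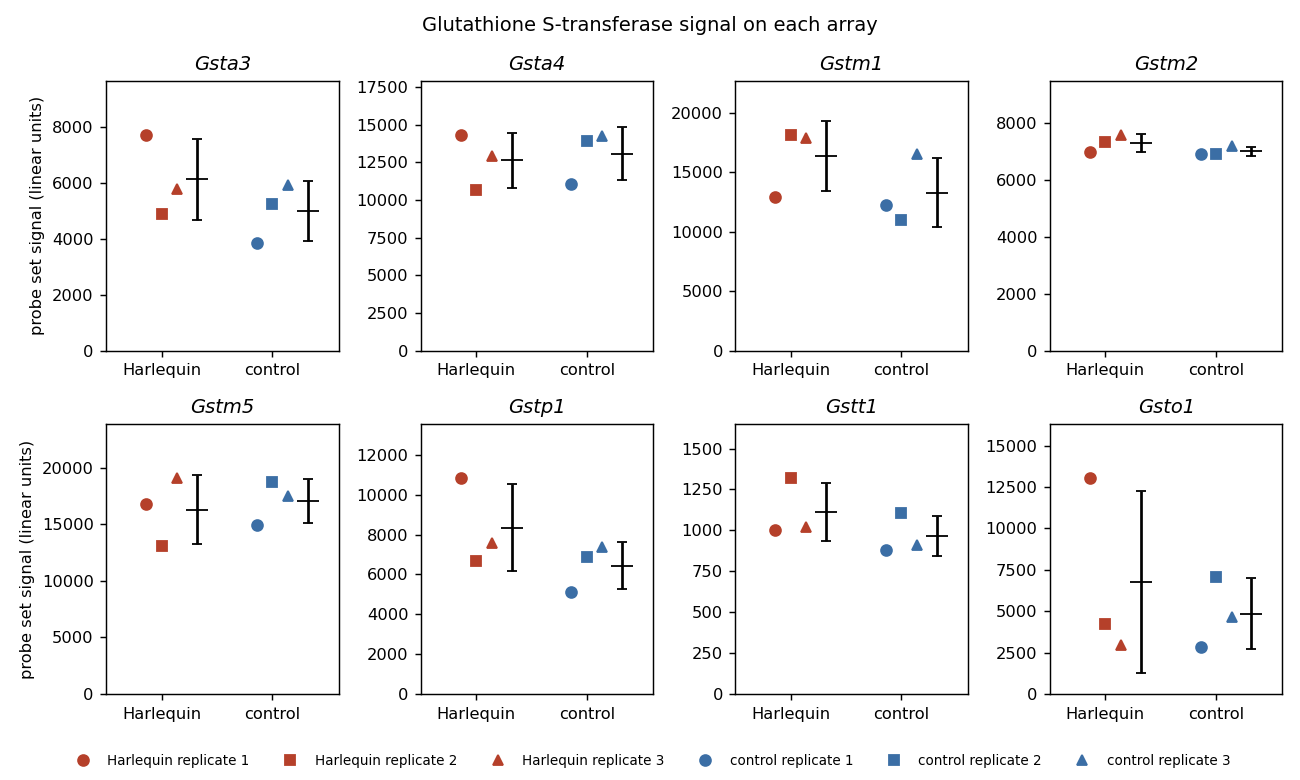
Probe set signal in linear units for the 8 members, with Harlequin arrays on the left and control arrays on the right of each panel, a symbol per replicate, and the mean with SD (n = 3) beside them. The genotypes overlap in each panel; Gsto1 on Harlequin replicate 1 stands at 13042.3, while Gstm2 stays between 6897.3 and 7575.1.

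Among the alpha class, Gsta3, an enzyme known in mice for conjugating the epoxide of aflatoxin B1, gave 7703.7, 4896.9 and 5760.6 in Harlequin, against 3834.7, 5228.1 and 5922.9 in controls (probe set 1423436_at). Harlequin replicate 1 was the highest and control replicate 1 the lowest of the 6, and the other 4 arrays of both genotypes lay between 4896.9 and 5922.9. The log2 difference was 0.29 (SE 0.20, 95% interval -0.16 to 0.74), or 1.22-fold. The dimmer second probe set of Gsta3 read 885.8, 581.8 and 914.7 in Harlequin and 600.5, 764.7 and 1076.6 in controls, a log2 difference of -0.02 (95% interval -0.56 to 0.51), and there control replicate 3 was the highest array. Gsta4 gave 14310.9, 10665.6 and 12907.6 in Harlequin and 11029.3, 13907.1 and 14252.0 in controls (probe set 1416368_at). Its high and low arrays were spread over both genotypes. Genotypes differed by -0.05 on the log2 scale (SE 0.13, 95% interval -0.35 to 0.25), which spans 0.785-fold to 1.19-fold.

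Among the mu class members examined here, whose genes belong to a cluster on chromosome 3, Gstm1 varied most. Its brightest probe set (1416416_x_at) read 12933.6, 18128.4 and 17910.0 in Harlequin and 12267.9, 10995.6 and 16546.8 in controls. Harlequin replicates 2 and 3 and control replicate 3 formed the high end, and Harlequin replicate 1 lay with the other 2 controls. Means were 16324.0 ± 2938.2 in Harlequin and 13270.1 ± 2908.1 in controls (SD, n = 3). On the log2 scale the difference was 0.30 (SE 0.17, 95% interval -0.09 to 0.70), or 1.23-fold. The same 3 arrays were the highest on all 4 probe sets of Gstm1, which differed between genotypes by 0.30, 0.24, 0.35 and 0.11 on the log2 scale, each with an interval spanning 0. Probe sets with the suffix _x_at may also bind related transcripts, and 2 of the 4 carry it; 1448330_at, which does not, gave 13098.5, 17537.4 and 16904.8 in Harlequin and 12759.8, 11157.2 and 16406.4 in controls.

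Gstm2, a second mu class enzyme and the neighbour of Gstm1 in the annotated gene order, was the steadiest member. It gave 6972.2, 7333.0 and 7575.1 in Harlequin and 6897.3, 6922.2 and 7188.9 in controls (probe set 1416411_at). All 6 arrays lay within a 1.1-fold range. Its log2 difference was 0.06 (SE 0.07), with a 95% interval of -0.10 to 0.21, which spans 0.935-fold to 1.16-fold. The spread of Gstm2 within genotypes, a pooled SD of 0.05 log2 units, was at percentile 2.1 of all genes tested.

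Gstm5, the mouse counterpart of human GSTM3 and known from brain and testis, gave 16763.3, 13050.4 and 19074.7 in Harlequin and 14899.8, 18696.5 and 17498.8 in controls (probe set 1416842_at). The highest and the lowest array were both Harlequin. Harlequin minus control came to -0.07 on the log2 scale (SE 0.14, 95% interval -0.40 to 0.25), and it turned to 0.08 without Harlequin replicate 2.

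Gstp1, the pi class enzyme, which also binds the stress kinase JNK, had the highest mean difference of the 8. It gave 10831.2, 6665.3 and 7554.3 in Harlequin and 5120.2, 6854.1 and 7351.5 in controls (probe set 1449575_a_at). Harlequin replicate 1 stood above the rest and control replicate 1 below them, while the remaining 4 arrays lay between 6665.3 and 7554.3. Means were 8350.3 ± 2194.0 in Harlequin and 6441.9 ± 1171.4 in controls (SD, n = 3). The log2 difference was 0.36 (SE 0.19, 95% interval -0.08 to 0.80; limma unadjusted p = 0.0981, adjusted p = 0.981), or 1.28-fold. Leaving out Harlequin replicate 1 gave 0.16, and leaving out control replicate 1 gave 0.20. Gstp2, the close relative next to Gstp1 on chromosome 19, has no probe set of its own in the annotation used here, so signal from it cannot be told apart from Gstp1.

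Gstt1 gave 1002.5, 1319.2 and 1020.1 in Harlequin and 881.5, 1106.0 and 910.1 in controls (probe set 1418186_at). Harlequin replicate 2 was the highest, with control replicate 2 next, and the other 2 controls were the lowest. This gave a log2 difference of 0.20 (SE 0.14, 95% interval -0.13 to 0.53), or 1.15-fold.

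Gsto1, an omega class enzyme that reduces dehydroascorbate and acts in arsenic metabolism, varied far more between mice than the other members. It gave 13042.3, 4246.4 and 2970.8 in Harlequin and 2818.4, 7074.5 and 4657.0 in controls (probe set 1416531_at), a 4.63-fold range over the 6 arrays. Harlequin replicate 1 was the highest, control replicate 2 the second, and Harlequin replicate 3 and control replicate 1 the lowest. Means were 6753.2 ± 5483.8 in Harlequin and 4850.0 ± 2134.6 in controls (SD, n = 3). The log2 difference of 0.27 (SE 0.52) had a 95% interval of -0.92 to 1.47, or 0.528-fold to 2.77-fold, so a 2-fold difference in Gsto1 was not detectable with these arrays. Without Harlequin replicate 1 the difference was -0.35, and without control replicate 1 it was -0.07. The second probe set, 1456036_x_at, read 9070.3, 2666.6 and 3336.8 in Harlequin and 2412.7, 6856.8 and 3160.5 in controls, with the same 2 arrays at the top.

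**Figure D3:**
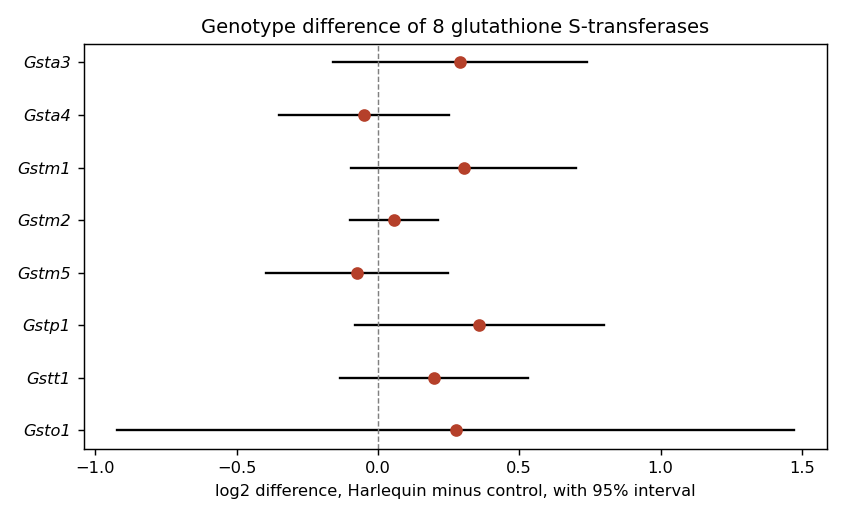
Log2 difference, Harlequin minus control, of each member, with points for the estimate and lines for the 95% interval from limma. All 8 intervals span 0; the Gstm2 interval of -0.10 to 0.21 is the narrowest of the 8 and the Gsto1 interval of -0.92 to 1.47 the widest.

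The third question was how the enzymes varied between mice, whatever the genotype. The pooled SD of log2 signal within genotypes was 0.91 for Gsto1, at percentile 99.2 of the genes tested. Gsta3 (0.33, percentile 83.0), Gstp1 (0.32, percentile 82.7) and Gstm1 (0.29, percentile 78.0) followed. Gstm5 (0.23, percentile 65.9), Gsta4 (0.21, percentile 60.4) and Gstt1 (0.20, percentile 56.7) lay nearer the middle, and Gstm2 at the low end. The probe sets of a gene mostly gave the same arrays as high and low, which is shown in the plot of probe set deviations for the 3 members with more than 1 probe set.

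**Figure D4:**
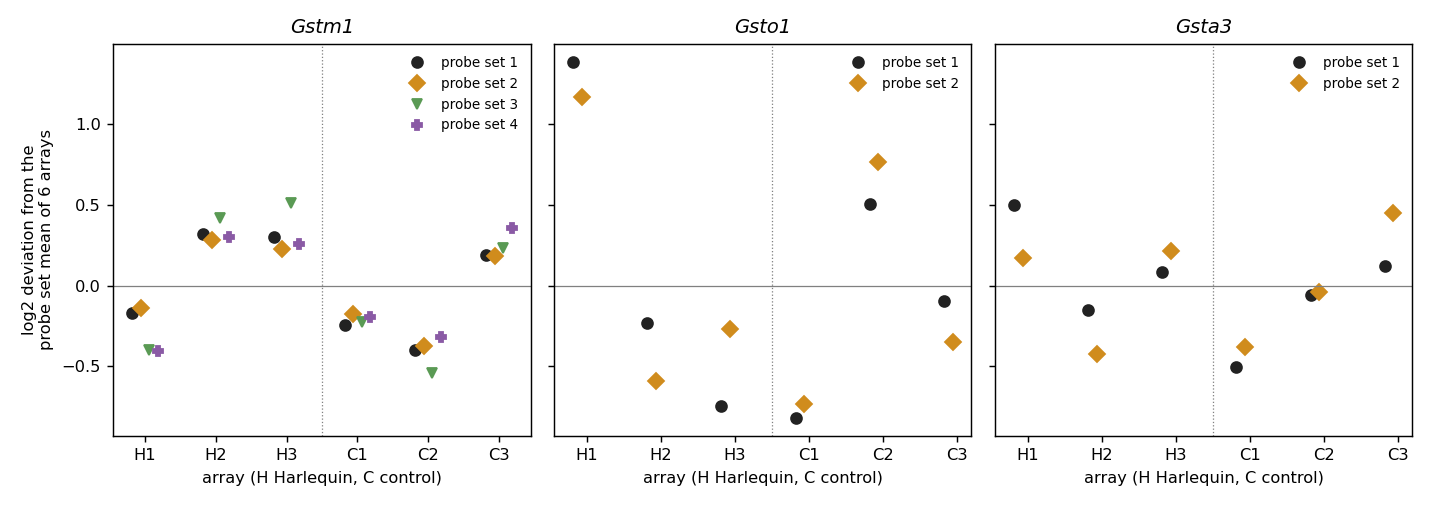
Deviation of log2(signal + 16) from its mean over the 6 arrays, for each probe set of Gstm1 (4), Gsto1 (2) and Gsta3 (2), with Harlequin arrays (H1 to H3) left of the control arrays (C1 to C3). Probe sets are numbered by mean signal. The Gstm1 probe sets are all above 0 on H2, H3 and C3, the Gsto1 probe sets are above 0 on H1 and C2, and the Gsta3 probe sets differ in whether H1 or C3 is highest.

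Correlations over the 6 arrays were computed for all 28 pairs of members, of which 21 were positive and 7 negative, and 0 passed after adjustment over the 28 pairs. Gsta3 and Gstp1 had the closest profiles, with Pearson's r = 0.986 (exact permutation p = 0.00417, adjusted p = 0.117) and Spearman's rho = 0.943 (exact permutation p = 0.0167, adjusted p = 0.311). Without the 2 arrays farthest from the Gsta3 median, Harlequin replicate 1 and control replicate 1, r was 0.943. For the deviations from each genotype's mean it was 0.987. These values rest on the brighter of the 2 Gsta3 probe sets. The dimmer one was highest on control replicate 3 and lowest on Harlequin replicate 2, and its correlation with Gstp1 was not computed. Gstm1 and Gstm2 came next with r = 0.910 (exact permutation p = 0.025, adjusted p = 0.35) and rho = 0.886 (exact permutation p = 0.0333, adjusted p = 0.311). Without Harlequin replicate 2 and control replicate 2, r was 0.937, although the whole range of Gstm2 was 0.13 log2 units against 0.72 for Gstm1. The Gstm1 values in this pair came from 1416416_x_at, which may also bind related transcripts. The Gstm1 probe set 1448330_at, without that suffix, put the 6 arrays in the same order. Its correlation with Gstm2 was not computed. Some pairs rested on 2 arrays. Gsta4 and Gstm5 had r = 0.813 (exact permutation p = 0.0583, adjusted p = 0.389; rho = 0.429, exact permutation p = 0.419, adjusted p = 0.97), which turned to -0.826 without Harlequin replicate 2 and control replicate 1. With 3 arrays a genotype was too small for a correlation within each. All points share the scaling of their array.

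**Figure D5:**
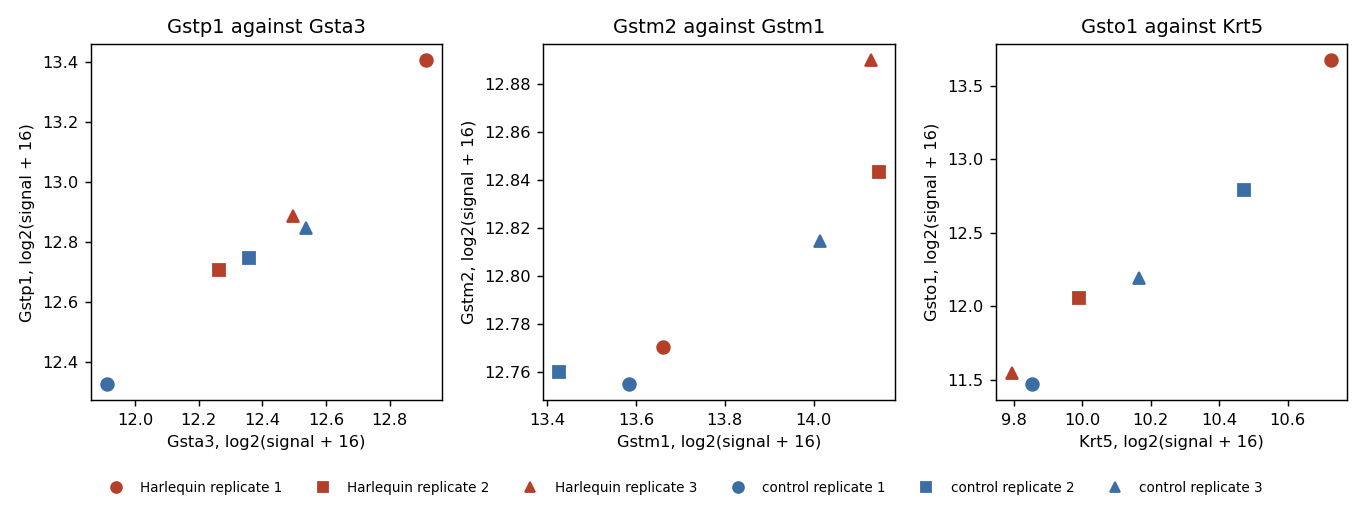
Log2(signal + 16) of Gstp1 against Gsta3, Gstm2 against Gstm1 and Gsto1 against the basal keratin Krt5, with a point per array, Harlequin in red and control in blue. Gstp1 and Gsta3 place Harlequin replicate 1 at the top and control replicate 1 at the bottom; Gsto1 and Krt5 both place Harlequin replicate 1 and control replicate 2 above the other 4 arrays.

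The genes most like the 3 members with the widest range were looked up among all genes tested, as a description that carries no test, since the highest of so many coefficients over 6 arrays is high by selection. For Gsto1 the closest profiles were those of Grhl2, an epithelial transcription factor, Rnf181, a ubiquitin ligase, and Rps10, a ribosomal protein, with r of 0.992, 0.991 and 0.985. For Gstp1 they were Elob, a subunit of elongin, Alas1, the first enzyme of haem synthesis outside red cells, and Antxr2, an anthrax toxin receptor, with r of 0.990, 0.986 and 0.986, and Gsta3 was in place 4. For Gsta3 they were Rsl1d1, Tmem125 and Hp, which encodes haptoglobin, with r of 0.988, 0.987 and 0.986, and Gstp1 was again in place 4. Hp itself spanned 3846.9, 898.6 and 1083.6 in Harlequin and 291.3, 812.2 and 1416.1 in controls.

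Some cell type markers had array profiles like those of members, and others did not. Of the basal cell list 6 of 7 genes were tested, and their summed signal was 3871.4, 2759.9 and 2675.4 in Harlequin and 2631.4, 3599.2 and 3290.4 in controls, the same order of arrays as Gsto1. The bright keratins weigh most in that sum: with each gene weighted equally, the mean log2 deviation of the list was -0.06, 0.00 and -0.03 in Harlequin and -0.16, 0.17 and 0.07 in controls, where Harlequin replicate 1 lay near the low end and control replicate 2 was the highest. Krt5, the defining keratin of that list, read 1679.6, 1001.0 and 871.9 in Harlequin and 909.4, 1404.9 and 1133.4 in controls; it was chosen for the plot after its values were seen. Krt14, the partner keratin of Krt5, was also highest on Harlequin replicate 1, at 935.4, whereas Trp63, Icam1, Neurog1 and Kit were not. Trp63, the transcription factor of basal cells, read 737.1, 580.5 and 599.3 in Harlequin and 684.8, 961.4 and 1040.0 in controls. Of the respiratory epithelium list 7 of 8 genes were tested, Scgb1a1 being too dim, with summed signals of 17048.4 to 27711.5 in Harlequin and 20430.7 to 24110.1 in controls and the highest value on Harlequin replicate 1. Among them the secreted lectin Reg3g, which weighs most in that sum, read 20435.7, 13274.0 and 12326.8 in Harlequin and 14305.9, 17719.3 and 16459.4 in controls. Dnah5, Dnaic1, Tekt1 and Muc5ac were also highest on Harlequin replicate 1, whereas Foxj1 and Ccdc39 were highest on a control array. Differences between the genotypes were negative for 6 of these 7 genes, with a median of -0.13 on the log2 scale. The sum of the sustentacular list, with 7 of 9 genes tested, varied little, at 70092.4 to 70588.4 in Harlequin and 71470.2 to 72513.6 in controls, although the Harlequin sums all lay below the control sums. Its brightest genes weigh most in that sum. With each gene weighted equally the genotypes overlapped, with mean log2 deviations of -0.12 to 0.02 in Harlequin and -0.01 to 0.08 in controls. Mature neuron genes, 8 of 10 tested, summed to 101365.1 to 105785.2 in Harlequin and 98462.5 to 108739.2 in controls. No defining marker among Krt5, Foxj1, Cyp2g1 and Omp was at 0 on any array. 

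Other marker lists differed more between the genotypes, although 0 of their genes were called. Erythroid markers had positive differences for 4 of 4 genes tested, with a median of 1.45 on the log2 scale and 4 at an unadjusted p under 0.05, and summed to 3308.8, 3992.1 and 3077.4 in Harlequin and 1192.2, 754.7 and 2133.9 in controls. Fibroblast markers had negative differences for 7 of 7 genes, with a median of -0.52 and sums of 19478.3, 37851.3 and 21500.4 in Harlequin and 40149.3, 32782.7 and 25372.4 in controls. Markers of ensheathing and Schwann glia were negative for 5 of 5 genes, with a median of -0.40 and sums of 10433.3, 8474.8 and 10029.2 in Harlequin and 10118.4, 13114.4 and 11350.4 in controls. The erythroid sums did not overlap between the genotypes, while the fibroblast and glial sums did. Bowman gland markers, all 8 tested, had a median of -0.11 and summed to 111894.5, 101460.4 and 106409.1 in Harlequin and 103281.6, 115983.4 and 114428.6 in controls. At an unadjusted p under 0.05 in limma were 2 of these 8, 2 of 7 fibroblast and 2 of 5 glial genes. Over all genes tested the share was 4.58%. The 2 Bowman gland genes were Lcn11 and Obp1a, with log2 differences of -0.27 and -0.12, both without overlap between the genotypes. The part of tissue make-up in the genotype differences of the members and in the spread of Gsto1, Gsta3 and Gstp1 was not tested.

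The last question was whether the wider pathway differed between the genotypes. Genes of the lists that were not tested were below the brightness limit or had no probe set of their own. Of all genes tested, 10.4% had no overlap between the genotypes. In the order of the lists below, genes without overlap were 1 of 13, 1 of 6, 0 of 13, 1 of 10, 1 of 9 and 2 of 10. At such small counts they are given as a description only. Of 16 other soluble glutathione S-transferases, 13 were tested and 0 were called, with a median log2 difference of 0.05. Hpgds, the prostaglandin D synthase of blood-derived cells, read 215.8, 90.4 and 75.4 in Harlequin against 53.9, 72.8 and 64.3 in controls. It was the 1 gene of the 13 with no overlap, at a log2 difference of 0.73 (95% interval -0.08 to 1.53, adjusted p = 0.981). Gsta2, an alpha class enzyme, differed by 0.23, the theta class Gstt2 by 0.25 and Gstcd by -0.24. The remaining 9, Gstm3, Gstm4, Gstm6, Gstm7, Gstp3, Gstt3, Gsto2, Gstz1 and Gstk1, differed by -0.16 (Gstm7) to 0.29 (Gstm3), each with overlap between the genotypes.

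All 6 genes of the membrane-bound MAPEG family were tested, 0 were called and the median difference was 0.29. Mgst3, a microsomal transferase and peroxidase, read 12036.3, 12847.2 and 13033.6 in Harlequin and 11539.4, 11979.3 and 10155.9 in controls, without overlap, at a log2 difference of 0.17 (95% interval -0.01 to 0.35, adjusted p = 0.981). Mgst1, the bright microsomal transferase of the endoplasmic reticulum, read 16188.2 to 18187.7 in Harlequin and 16585.0 to 18369.0 in controls, a log2 difference of -0.02. Ltc4s, which makes leukotriene C4 from glutathione, differed by 0.77 (95% interval -0.13 to 1.67), the leukotriene helper protein Alox5ap by 0.51, Mgst2 by 0.41 and the prostaglandin E synthase gene Ptges by 0.05, each with overlap between the genotypes. Ltc4s was dim, at 151.5, 97.2 and 134.4 in Harlequin and 71.4, 126.3 and 30.1 in controls. Its control replicate 3 lay below the signal of 61.1 used as the brightness limit. Alox5ap, which is known from leukocytes, read 1041.3, 958.9 and 915.3 in Harlequin and 592.0, 428.1 and 1209.5 in controls. Neutrophil markers, 7 of 8 tested, summed to 49300.6, 39748.8 and 30293.7 in Harlequin and 27360.7, 13098.3 and 40753.6 in controls, and the 8 macrophage markers summed to 4817.9 to 5504.6 in Harlequin and 4018.4 to 5034.9 in controls. Control replicate 2 was the lowest and control replicate 3 the highest of the controls for Alox5ap and for both lists. The part of leukocytes in the Alox5ap values was not tested. Ltf, at 14337.1 on Harlequin replicate 1, counts in the neutrophil sums and also in the Bowman gland sums above.

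Genes that make and recycle glutathione showed 0 calls among 13 tested of 16, and a median difference of 0.04. Gclc, the catalytic subunit of the first and rate-limiting step, read 2556.7, 1629.1 and 2410.2 in Harlequin and 1947.1, 2491.0 and 2864.4 in controls, a log2 difference of -0.16 (95% interval -0.60 to 0.29). Its partner Gclm differed by 0.05, the second enzyme of synthesis Gss by 0.12 and glutathione reductase, Gsr, by -0.03. Chac1, which degrades glutathione, differed by 0.51 (95% interval -0.15 to 1.16), Slc3a2, the heavy chain of amino acid transporters, by 0.12, Ggt7, of the gamma-glutamyltransferase family, by 0.28 and Chac2, a relative of Chac1, by -0.11. Of the steps after conjugation, 10 of 12 genes were tested and 0 called, with a median of 0.001. There the conjugate exporter Abcc3 read 1853.0, 1483.2 and 1522.1 in Harlequin and 1411.1, 1481.8 and 1458.1 in controls, without overlap, at a log2 difference of 0.15 (95% interval -0.10 to 0.40). Its relative Abcc1 differed by -0.04, the aminoacylase gene Acy3 by -0.16, the exporter gene Abcc5 by 0.10 and the dipeptidase gene Dpep1 by 0.34.

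Regulators of these enzymes gave no call either. Of 11 genes 9 were tested and 0 called, with a median of -0.01. Nfe2l2, which encodes NRF2, the transcription factor that acts through antioxidant response elements, read 5875.0, 5482.7 and 5961.2 in Harlequin and 6484.8, 5630.3 and 4762.2 in controls, a log2 difference of 0.05 (95% interval -0.21 to 0.31). Its inhibitor Keap1 differed by -0.01. Cul3, the ubiquitin ligase subunit that works with KEAP1, read 2305.6, 2496.7 and 2597.7 in Harlequin and 2715.6, 2733.0 and 2616.5 in controls, without overlap, and differed by -0.12 (95% interval -0.32 to 0.07). The xenobiotic receptor gene Ahr differed by 0.15, and Mafg and Mafk, which encode small MAF partners of NRF2, by -0.09 and 0.09. Other NRF2 targets gave 0 calls among 10 tested of 11, with a median of 0.08. Txnrd1, thioredoxin reductase, differed by 0.19 (95% interval -0.02 to 0.39) and Ugdh, which makes UDP-glucuronate, by -0.12 (95% interval -0.29 to 0.04), both without overlap.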

How the data were processed

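RNA of 6 mice was hybridised, per the labels' protocols after labelling 3 µg each with biotin. The file deposited by the authors holds linear intensities of 45101 probe sets, whose trimmed mean is 500 on each array, as after scaling with 1 factor. Such scaling leaves differences between arrays that depend on brightness. The summarising software is not given in the sources used here. The log2(value + 16) scale shrinks changes of dim genes. For each gene the probe set with the greatest mean log2 value was used, leaving out 64 controls. Genes above the 40th percentile, a signal of 61.1, were tested. Symbols come from the platform annotation, where 34945 probe sets name 1 gene, 932 several and 9160 none.

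Genotypes were compared by limma 3.58.1 under R 4.3.3, using an intensity trend and no further terms, two-sided, with Benjamini-Hochberg adjustment over 13219 genes. Intervals cover 95%. The procedure was tested on simulated data. Python 3.11.15, pandas 2.3.3 and matplotlib 3.10.9 made the summaries and figures. The labels call the arrays of a genotype biological replicates. Members and lists were chosen with earlier results of these data known. Named were the members, up to 4 genes per list with the smallest p, the tested genes of the 2 family lists, the 3 genes most like each of the 3 widest-ranging members, and markers. Gclc, Gclm, Gss, Gsr, Abcc1, Nfe2l2, Keap1 and the genes named under the other observations were chosen after their values were seen. Equal replicate numbers were not taken as pairs: the correlations of deviations between same-numbered arrays were -0.24, -0.03 and 0.06.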

Additional observations from a re-analysis of the deposited data

How the results depend on the processing

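Each member's difference was recomputed under 19 alternatives, and 0 members were called under any of them. The direction of Gsta3, Gstm1, Gstm2, Gstp1 and Gstt1 held under all 19, and that of Gsta4, Gstm5 and Gsto1 under the 13 that keep all arrays. The fit with every probe set was read at the same probe set of each member as the main fit, so it could not show a change of probe set. In that fit the dimmer Gsta3 probe set gave -0.02. Gsta4 turned to 0.066 without Harlequin replicate 2 and 0.017 without control replicate 3, Gstm5 to 0.077 without Harlequin replicate 2, and Gsto1 to -0.35 without Harlequin replicate 1 and -0.07 without control replicate 1. With 1 array left out the differences ranged from 0.11 to 0.44 for Gsta3, -0.17 to 0.07 for Gsta4, 0.18 to 0.47 for Gstm1, 0.03 to 0.09 for Gstm2, -0.20 to 0.08 for Gstm5, 0.16 to 0.51 for Gstp1, 0.07 to 0.30 for Gstt1 and -0.35 to 0.71 for Gsto1. The mean over probe sets gave 0.13 for Gsta3. The count of genes called, 4, was 0 without an intensity trend, 0 with the replicate block and 7 with every probe set tested on its own, and 0 to 3 with 1 array left out. With the replicate number as a block the members kept their differences, and 0 were called. Medians of the members and of the pathway lists, and the brightness ranks, moved by less than the spread between arrays under each alternative run. The median over the members ranged from 0.08 to 0.27. Medians of the marker lists were not recomputed under the alternatives. The cause of these shifts was not tested. The number of arrays limits what could be seen: the half-width of the 95% interval had a median of 0.34 log2 units over all genes.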

Other observations

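Several enzymes and secreted products outside the glutathione S-transferases were highest on Harlequin replicate 1, like Gsto1, Gstp1, Gsta4 and the brighter Gsta3 probe set. They were picked for this, and the share of all genes highest on that array was not computed. Aldh3a1, Gpx2 and Akr1b8 are from the list of other NRF2 targets. Of that list Cbr1 was also highest there, while Nqo1, Hmox1, Txnrd1, Srxn1, Ephx1 and Ugdh were not. Aldh3a1, an aldehyde dehydrogenase of surface epithelia, read 7980.5, 2106.5 and 2181.0 in Harlequin and 1453.3, 2799.9 and 3987.1 in controls. Gpx2, an epithelial glutathione peroxidase, read 4187.8, 979.3 and 1085.0 in Harlequin and 920.6, 1978.0 and 1738.1 in controls. The aldo-keto reductase gene Akr1b8 read 786.1, 357.7 and 408.4 in Harlequin and 302.1, 298.8 and 531.8 in controls. Lactotransferrin, Ltf, read 14337.1, 6979.7 and 7658.8 in Harlequin and 7262.5, 5855.9 and 8359.4 in controls, and the mucin Muc5ac read 655.0, 54.4 and 18.9 in Harlequin and 170.4, 113.4 and 218.7 in controls. None of Aldh3a1, Gpx2, Akr1b8, Ltf and Muc5ac was called between the genotypes in limma (adjusted p of 0.981 to 0.994). The values of the genotypes overlapped for each of them.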
